A study of Mus musculus with 583 samples.

Results

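Histone lysine methyltransferases and demethylases were followed as a set of 32 genes in single mouse embryonic stem cells measured with 6 library methods. Of the genes, 18 were classed as writers of the mark and 14 as erasers. The class of writers includes Setd3, known as an actin histidine methyltransferase. The genes were chosen by name, with earlier results of these data known, and all 32 were found among the 38924 genes of the count table. The cells were of the J1 line, an established mouse embryonic stem cell line, grown in 2i/LIF, which pairs inhibitors of differentiation signalling with leukaemia inhibitory factor. The labels give every group this line and this culture and no treatment, and set the groups apart by method. Whether the methods used the same cultures or days is not given in the sources used here. Smart-seq / C1 and Smart-seq2 sequence fragments from the whole cDNA and count reads. The tag methods mark 1 end of each molecule with a unique molecular identifier (UMI) and count identifiers. Of these, MARS-seq and CEL-seq2 copy the cDNA through in vitro transcription, Drop-seq and SCRB-seq through PCR.

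Each method had 2 replicate libraries, A and B, giving 12 libraries and 583 cells. A library held 29 to 80 cells, and its total ran from 17630767 to 34984056 reads in the 4 full-length libraries and from 583302 to 2784441 UMIs in the 8 tag libraries. Counts were summed over the cells of a library, and the library was the replicate. Nothing in the labels says that A and B came from separate cultures, so the p-values measure only how libraries A and B scatter, which may be a technical matter. Method, counting unit, depth and amplification go together in this design and cannot be told apart. The summed level of 8 embryonic stem cell markers was 1974 to 4195 CPM (counts after scaling every library to the same total) in the 12 libraries. That of 6 fibroblast markers was 0.443 to 39.5 CPM, with Postn at no count in any library, of 6 primitive endoderm markers 0 to 22.7 CPM, of 5 trophectoderm markers 12.5 to 119 CPM and of 4 markers of primed pluripotent cells 44.5 to 208 CPM. The stem cell markers were above all of these in each library.

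Writers carry a SET domain, or in Dot1l an unrelated fold, and move methyl groups from S-adenosylmethionine to lysines of histones, though some members act mainly on other proteins. Methylation of lysine 4 of histone H3 (H3K4) marks active promoters and enhancers, that of H3K36 and H3K79 transcribed gene bodies, and that of H3K9 and H3K27 silenced chromatin. Erasers remove the groups by oxidation, either with flavin (Kdm1a and Kdm1b) or with iron and 2-oxoglutarate (the JmjC family). In embryonic stem cells these enzymes are known for holding developmental genes silent or poised, and several are components of large complexes.

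The transcripts were long, and the writers' were the longer class. The longest annotated transcript had a median length of 7094 nucleotides (nt) in the writers, 5083.5 nt in the erasers and 2863 nt in all genes tested. Kmt2d was the longest at 19823 nt and Smyd2 the shortest at 1708 nt. Base composition also spread widely, from 39.62% G or C in Kdm7a to 60.76% in Ehmt2. The annotation had 14 members sharing exon bases with another gene, 3 of them on the same strand (Setd1a with Gm49388, Ehmt1 with Gm37139 and Kdm2b with Gm44574). Setd1a shared 52.3% of its exon bases, Smyd2 30.0% and Kdm3b 24.6%, and the other members at most 10%. Reads of these genes may have been split or lost in counting, and whether counting used the strand is not given in the sources used here.

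Base composition is shown here for 4 members, because these had the largest differences between the 2 full-length methods described further on. The 2 largest falls were Kdm6b and Kdm4b, the 2 largest rises Nsd1 and Kmt2a. Each sequence is the coding window of 100 bases nearest to its gene's median G and C content, read 5′ to 3′ along the transcript from the GRCm38 (mm10) assembly, with G and C in capitals.
Kdm6b, chr11:69407545-69407644, minus strand, exon 6: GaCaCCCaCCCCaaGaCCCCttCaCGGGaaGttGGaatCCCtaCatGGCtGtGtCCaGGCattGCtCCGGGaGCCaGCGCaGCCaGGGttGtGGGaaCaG
Kdm4b, chr17:56352976-56353075, plus strand, exon 3: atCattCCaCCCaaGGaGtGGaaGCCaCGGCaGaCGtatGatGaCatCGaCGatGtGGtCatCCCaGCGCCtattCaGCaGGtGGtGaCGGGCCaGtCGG
Nsd1, chr13:55213921-55214020, plus strand, exon 2: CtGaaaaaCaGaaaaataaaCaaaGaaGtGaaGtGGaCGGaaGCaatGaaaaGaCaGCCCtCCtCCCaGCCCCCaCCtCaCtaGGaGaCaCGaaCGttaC
Kmt2a, chr9:44849955-44850054, minus strand, exon 3: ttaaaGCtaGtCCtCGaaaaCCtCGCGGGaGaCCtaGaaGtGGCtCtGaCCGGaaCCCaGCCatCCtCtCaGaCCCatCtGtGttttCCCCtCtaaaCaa
The Kdm6b window held 62% G or C and the Kdm4b window 58%, against 47% in Nsd1 and 52% in Kmt2a. Along the coding sequence the windows ranged from 51% to 74% in Kdm6b, 51% to 69% in Kdm4b, 35% to 60% in Nsd1 and 38% to 88% in Kmt2a, so the ranges of the 4 genes overlapped.

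A few members led the set. Averaged over the 12 libraries, Kdm5b was highest at 332 CPM, followed by Nsd1 at 282, Kdm1a at 182 and Kdm3a at 166 CPM. Kdm5b removes methyl groups from H3K4, Nsd1 methylates H3K36, Kdm1a (LSD1) removes H3K4 mono- and dimethylation, and Kdm3a acts on H3K9. Kdm8 at 3.69 CPM and Setd7, which methylates H3K4 and many non-histone proteins, at 6.87 CPM were lowest. Levels were set against each other per kilobase of transcript in the full-length libraries and as UMI CPM in the tag libraries, where length does not multiply the count. Per kilobase, Kdm3a stood at 60.9 ± 37.9, Kdm1a at 56.8 ± 24.4, Kdm5b at 44.7 ± 10.9 and Nsd1 at 40.2 ± 31.2 CPM per kb (SD, n = 4). In UMI CPM, Kdm5b stood at 303 ± 104, Kdm1a at 187 ± 48.7, Nsd1 at 166 ± 82.8, Setd5 at 128 ± 49.0 and Kdm3a at 102 ± 45.4 CPM (SD, n = 8). In either order the ranges over libraries of all 31 neighbouring pairs overlapped. These ranges do not compare 2 genes within the same library, and the order of neighbours was not tested. Setd5 lay above its neighbour Kdm3a in every tag library, and per kilobase Setd1b lay above Setd7 in every full-length library. The orders shared 6 of their 10 highest members, and their Spearman correlation across the 32 genes was 0.709, a description over genes of the same cell line.

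**Figure D1:**
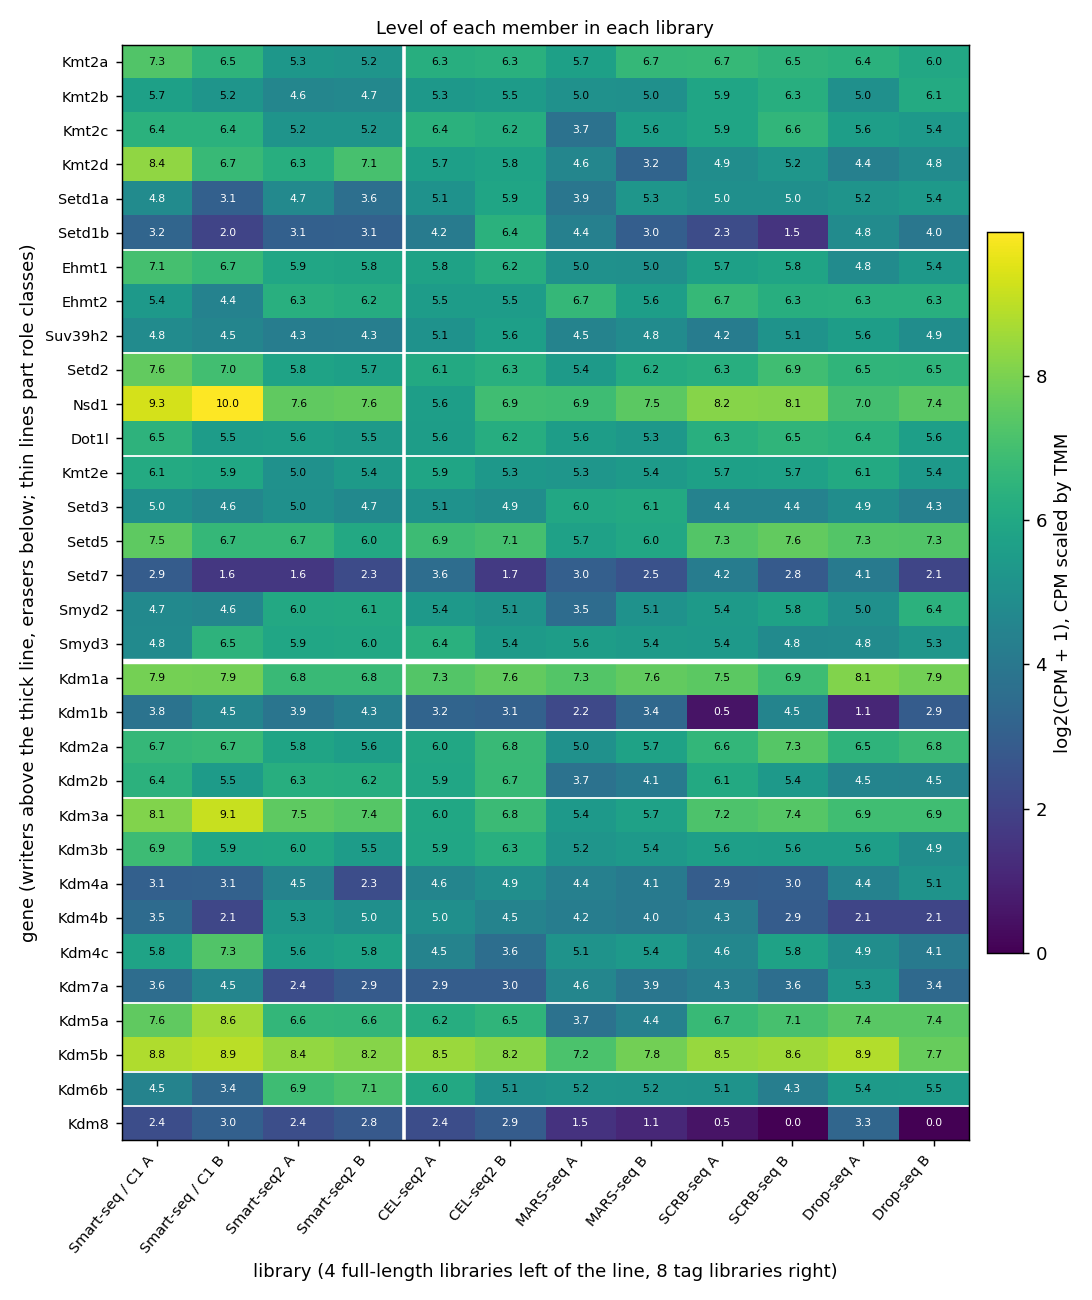
Level of the 32 members (rows, writers above erasers) in the 12 libraries (columns), each cell coloured by log2(CPM + 1) of the counts summed over the library's cells. Kdm5b and Kdm1a are above 100 CPM in every column, while Kdm8, Setd7 and Kdm1b are dark in most.

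Writers and erasers took similar shares of the counts. All 32 together made up 0.109% (MARS-seq A) to 0.420% (Smart-seq / C1 A) of a library's counts. The summed CPM of the writers divided by that of the erasers was 1.35 and 0.926 in Smart-seq / C1 A and B and 0.812 and 0.878 in Smart-seq2. CEL-seq2 A and B gave 0.935 and 1.01, and MARS-seq gave 1.28 and 1.20. SCRB-seq followed with 1.12 and 1.15, then Drop-seq with 0.772 and 1.05. Libraries lay on both sides of 1 in either kind of method. After division of each gene's CPM by its transcript length the ratio was 0.570 to 0.847 over the full-length libraries. The same division gave 0.671 to 1.03 over the tag libraries, where length does not multiply the count, so it is no length correction there.

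The comparison of full-length with tag methods asks how the way of counting changes the apparent level of each gene. In edgeR's quasi-likelihood test with Benjamini-Hochberg adjustment over the 14293 genes tested, 7 members were higher in full-length libraries, 1 was lower and 24 did not pass an adjusted p of 0.05. All 32 members passed the filter on low counts and were tested. Over all genes 25.6% were called higher and 23.2% lower. These shares include short transcripts, among which there are no members: of 1211 genes of at most 500 nt, 915 were called lower. Of 3684 genes of 4001 to 8000 nt, 1163 were called higher and 267 lower. In 2 members, Kmt2d and Kdm3a, the 4 full-length libraries lay above all 8 tag libraries. The other 30 overlapped.

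Among the H3K4 writers, Kmt2d was higher and Setd1a lower in full-length libraries. Kmt2d (MLL4) primes enhancers by monomethylation and lies on the minus strand of chromosome 15, 98831669 to 98871204. It stood at 326 and 106 CPM in Smart-seq / C1 A and B and 76.9 and 134 CPM in Smart-seq2, against 8.2, 28.1 and 53.9 CPM as lowest, median and highest of the tag libraries. The means were 161 ± 113 (SD, n = 4) and 30.96 ± 15.3 CPM (SD, n = 8), and the log2 fold change was 2.45 ± 0.30 (SE; edgeR, adjusted p = 2.5e-06). Setd1a, a catalytic subunit of the COMPASS complexes at promoters (chromosome 7, 127776670 to 127800122, plus strand), stood at 27.1, 7.4, 25.2 and 11.5 CPM in the same order, against 14.2, 34.3 and 58.1 CPM. Its libraries overlapped, and the log2 fold change was -0.96 ± 0.39 (SE; edgeR, adjusted p = 0.0495). This call was lost on leaving out any of 8 libraries, with values from -0.64 (without Smart-seq / C1 B) to -0.99 (without Drop-seq A), and without the filter on low counts at -0.76. The other libraries whose removal ended it were Smart-seq2 B, CEL-seq2 B, MARS-seq B, SCRB-seq A, SCRB-seq B and Drop-seq B. Setd1a also shares 54.6% of its 31-base stretches with other genes. Of members described further on, Kdm2b shares 24.8% and Setd3 20.2%. The part of this in the values of these 3 genes was not tested. Kmt2a (MLL1), the H3K4 writer with the highest mean over the 12 libraries though below Kmt2d in each full-length library, had 155, 89.4, 37.6 and 35.8 CPM against 49.8, 80.8 and 103 CPM. Its 2 full-length methods fell on either side of the tag median, and its fold change was -0.26 ± 0.24 (SE; edgeR, adjusted p = 0.402). Kmt2b, Kmt2c and Setd1b did not pass either, at log2 fold changes of -0.51, 0.00 and -1.09.

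Of the 3 H3K9 writers, Ehmt1 was higher in full-length libraries. Ehmt1 (GLP) and Ehmt2 (G9a) work as a heterodimer that places H3K9 mono- and dimethylation. Ehmt1 had 132, 102, 59.0 and 55.7 CPM against 27.3, 46.4 and 73.2 CPM, a log2 fold change of 0.90 ± 0.23 (SE; edgeR, adjusted p = 0.00306). Ehmt2 had 40.1, 20.7, 78.4 and 71.5 CPM against 45.3, 76.9 and 103 CPM, at -0.54 ± 0.26 (SE; edgeR, adjusted p = 0.0983). The members of this pair thus had estimates of opposite sign, of which only that of Ehmt1 passed. Suv39h2, a writer of H3K9 trimethylation in heterochromatin, did not pass at -0.57.

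Nsd1 was higher in full-length libraries among the H3K36 and H3K79 writers. It lies on chromosome 13, 55209782 to 55318325, plus strand, and places H3K36 dimethylation. Its levels were 651, 1018, 188 and 198 CPM against 47.9, 149.6 and 290.0 CPM, and its log2 fold change was 1.40 ± 0.23 (SE; edgeR, adjusted p = 5.57e-05). The Smart-seq / C1 libraries alone lay above all tag libraries, while Smart-seq2 lay within their range. Setd2, the writer of H3K36 trimethylation, and Dot1l, the H3K79 writer, did not pass, at 0.21 and -0.18. None of the other SET-domain proteins passed (Kmt2e, Setd3, Setd5, Setd7, Smyd2 and Smyd3, -1.17 to 0.51). Setd5, the most abundant of them, had 182, 99.5, 101 and 64.3 CPM against 51.6, 142.5 and 191 CPM. The sparse Setd7 had 6.47, 2.09, 2.06 and 3.91 CPM against 2.26, 6.57 and 17.3 CPM.

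Erasers that passed were all higher in full-length libraries. Among the JmjC erasers of H3K9, Kdm3a (chromosome 6, 71588972 to 71632990, minus strand) stood at 273, 562, 182 and 164 CPM against 40.9, 114.7 and 163 CPM over the tag methods. The groups did not overlap, though the lowest full-length and highest tag library were nearly equal, and the log2 fold change was 1.53 ± 0.22 (SE; edgeR, adjusted p = 1.49e-05). Kdm4c, which also acts on H3K36, had 54.2, 152, 47.7 and 53.8 CPM against 11.3, 25.95 and 53.2 CPM, at 1.43 ± 0.32 (SE; edgeR, adjusted p = 0.00106). Kdm3b, Kdm4a, Kdm4b and Kdm7a did not pass, at 0.52, -0.82, 0.43 and -0.64. Of the H3K4 erasers, Kdm5a (chromosome 6, 120364124 to 120444574, plus strand) had 188, 390.0, 97.9 and 94.4 CPM against 12.5, 98.8 and 172 CPM, at 1.19 ± 0.22 (SE; edgeR, adjusted p = 0.000226). Kdm5b, its more abundant relative (chromosome 1, 134560171 to 134635285, plus strand), had 445, 492, 331 and 288 CPM against 144, 324 and 461 CPM, and did not pass at 0.37 ± 0.22 (SE; edgeR, adjusted p = 0.164).

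Kdm2b, the CxxC-domain eraser that brings a polycomb complex to CpG islands, had 84.5, 43.7, 75.8 and 74.3 CPM against 12.5, 31.8 and 104 CPM. Its log2 fold change was 1.01 ± 0.27 (SE; edgeR, adjusted p = 0.00431), with CEL-seq2 B above every full-length library. Its paralog Kdm2a had 99.7, 105, 55.8 and 47.4 CPM against 32.02, 93.3 and 161 CPM and did not pass at -0.19. The flavin-dependent Kdm1a (chromosome 4, 136550540 to 136602723, minus strand) had 240.2, 231, 108 and 107 CPM against 118, 182.6 and 276 CPM, at -0.20 ± 0.19 (SE; edgeR, adjusted p = 0.416). Kdm1b, which acts on H3K4 in oocytes, had 12.8, 22.2, 13.9 and 19.1 CPM against 0.443, 6.99 and 21.8 CPM, at 1.34 ± 0.60 (SE; edgeR, adjusted p = 0.0740). Kdm6b (JMJD3), the H3K27 eraser, had 20.97, 9.42, 118 and 141 CPM against 18.5, 35.4 and 64.6 CPM: one full-length method lay below the tag median and the other above every tag library. Its mean over both gave 0.25 ± 0.29 (SE; edgeR, adjusted p = 0.505). Kdm8, a JmjC protein described as an H3K36 eraser, had 4.11, 7.27, 4.31 and 5.83 CPM against 0, 1.48 and 8.75 CPM, with no count in SCRB-seq B and Drop-seq B, and an adjusted p of 0.0737 in edgeR. Leaving out Smart-seq / C1 A, SCRB-seq B or Drop-seq B brought Kdm1b past the threshold (1.58, 2.49 and 1.82), as leaving out Smart-seq / C1 A, SCRB-seq A or Drop-seq A did Kdm8 (1.88, 2.75 and 3.84). Except without Smart-seq / C1 A, these fits left SCRB-seq or Drop-seq with 1 count of Kdm1b or 0 counts of Kdm8.

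Writers had the lower median difference, both without and with an allowance for transcript length. The median log2 fold change was -0.15 over the 18 writers (3 higher and 1 lower) and 0.47 over the 14 erasers (4 higher and none lower), against 0.21 over all genes. Single members ran from -1.17 to 2.45 in the writers and from -0.82 to 1.65 in the erasers, so the classes overlapped. Replicate libraries of a method differed in their class medians by an SD of 0.115 (writers) and 0.182 (erasers) in log2 CPM. That SD does not measure the spread among the genes of a class. Across all genes the median rose from -5.71 in transcripts of at most 500 nt through 0.05 at 1001 to 2000 nt to 0.59 at 2001 to 4000 nt, and was 0.50 and 0.46 in the bins above. All members but Smyd2 lie in the bins above 2000 nt. Against the median of all genes in its own length bin, the writers' median was -0.65 and the erasers' -0.03. With the length trend of all genes entered as an offset, the medians were -0.55 and 0.05. No test was made of the gap between classes.

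The length offset changed which members passed. With it, 13 members did, 5 higher and 8 lower, against 19.5% and 21.5% of all genes. Kmt2d (2.05), Kdm3a (1.06), Nsd1 (1.03), Kdm4c (0.95) and Kdm5a (0.82) were again higher, at edgeR adjusted p of 2.71e-05 to 0.0218. Kdm2b at 0.57 and Ehmt1 at 0.48 no longer passed (edgeR, adjusted p = 0.102 and 0.105). The 8 lower members were Kmt2a, Kmt2b, Setd1a, Setd1b, Ehmt2 and Suv39h2 among the writers and Kdm1a and Kdm4a among the erasers, with log2 fold changes from -1.47 to -0.63. Most calls were thus higher without the offset and lower with it. With every cell weighted alike (limma on the mean log2(CPM + 1) of cells), 16 members passed and all were higher, where 43.8% of all genes were called higher and their median was 0.57. Leaving out Smart-seq / C1 A, without the offset, gave 13 members, 10 higher and 3 lower, against 28.7% and 24.6% of all genes. Ehmt2 passed without that library (-0.75) or MARS-seq B (-0.65), and Kdm5b passed without Drop-seq A (0.55).

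**Figure D2:**
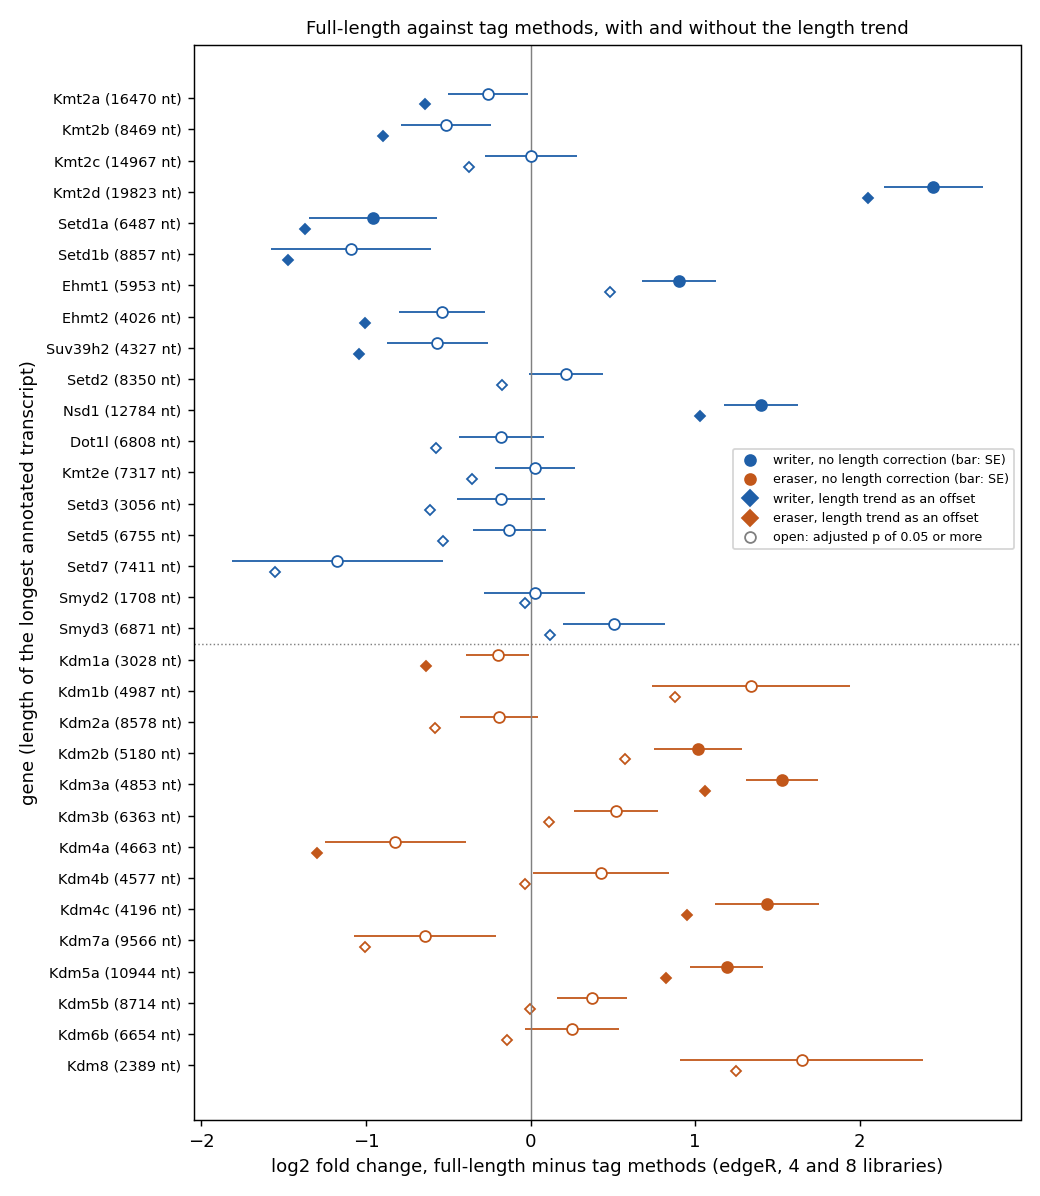
Log2 fold change of full-length against tag methods (x axis) for each member (y axis, with the length of its longest annotated transcript). Circles with SE bars are the fit without a length correction and diamonds the fit with the length trend as an offset, filled where the adjusted p was under 0.05. Most diamonds lie to the left of their circle, and the filled ones are 5 to the right of 0 and 8 to the left.

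Within the full-length methods, Smart-seq / C1 and Smart-seq2 differed for 9 members. In edgeR, 6 were higher in Smart-seq / C1 and 3 lower, 8.76% and 6.82% being the shares of all genes. The 2 libraries of Smart-seq / C1 lay above both of Smart-seq2 in 15 members, below in 4 and overlapped in 13. Nsd1 rose from 193 ± 6.96 CPM in Smart-seq2 to 834 ± 259 CPM in Smart-seq / C1 (SD, n = 2 each), a log2 fold change of 2.11 ± 0.39 (SE; edgeR, adjusted p = 0.00151). Kmt2a (chromosome 9, 44803355 to 44881296, minus strand) rose from 36.7 ± 1.29 to 122 ± 46.6 CPM, by 1.74 ± 0.39 (SE; edgeR, adjusted p = 0.00621). Setd2 rose from 52.0 ± 3.4 to 158 ± 45.2 CPM, by 1.60 ± 0.37 (SE; edgeR, adjusted p = 0.00721). Nsd1 and Setd2 write H3K36 methylation and Kmt2a writes that of H3K4. Kdm5a, Kdm3a and Kdm1a were the other rises, at 1.59, 1.27 and 1.13.

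The 3 falls were in GC-rich genes. Kdm6b (chromosome 11, 69398508 to 69413675, minus strand) went from 129 ± 16.3 CPM in Smart-seq2 to 15.2 ± 8.17 CPM in Smart-seq / C1 (SD, n = 2 each), a log2 fold change of -3.09 ± 0.49 (SE; edgeR, adjusted p = 0.000502). Kdm4b (chromosome 17, 56326062 to 56402870, plus strand), an H3K9 eraser, had 10.2 and 3.41 CPM in Smart-seq / C1 against 38.4 and 30.6 CPM, at -2.33 ± 0.64 (SE; edgeR, adjusted p = 0.0199). Ehmt2 had 30.4 ± 13.8 against 75.0 ± 4.86 CPM (SD, n = 2 each), at -1.30 ± 0.42 (SE; edgeR, adjusted p = 0.041). Smart-seq / C1 A and B themselves lay apart in several members, and several calls turned on 1 library. Kmt2a and Setd2 did not pass without Smart-seq2 A (1.73 and 1.63) or Smart-seq2 B (1.67 and 1.499), and only 2 members passed without either of these libraries. Kdm4b did not pass without Smart-seq / C1 B (-1.75), Smart-seq2 A (-2.20) or Smart-seq2 B (-2.52). Ehmt2 did not pass without any of 7 libraries: Smart-seq / C1 B (-0.90), Smart-seq2 A (-1.27), Smart-seq2 B (-1.40), SCRB-seq A and B (-1.30 each) and Drop-seq A and B (-1.30 and -1.34).

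Base composition moved with this difference, a pattern seen only once the values were known. The mature transcripts of Kdm6b, Kdm4b and Ehmt2 hold 59.56%, 58.68% and 60.76% G or C. Those of the 6 members that rose hold 43.28% (Kdm5a) to 51.65% (Kdm1a). Across the 32 members the Spearman correlation of log2 fold change with G and C content was -0.543, and across 14156 genes it was -0.556, given as descriptions over genes of the same 4 libraries. The median over all genes fell from 1.26 at no more than 40% G or C to -1.0 above 55%. The 8 members above 55% (Kmt2b, Kmt2d, Setd1a, Setd1b, Ehmt2, Dot1l, Kdm4b and Kdm6b) had a median of -0.23. Of these, Kmt2d (1.03), Kmt2b (0.84) and Dot1l (0.53) lay above 0 without passing, and the others lay below 0. Length moved with it too, with a correlation of 0.545 across the members and a median of 1.10 over all genes longer than 8000 nt. With every cell weighted alike, 4 members passed and all were lower in Smart-seq / C1, where 13.2% of all genes were called lower and their median was -0.36. With the length trend as an offset 4 members passed (Kdm1a higher, Ehmt2, Kdm4b and Kdm6b lower), against 7.97% of all genes higher and 5.39% lower. With length and GC trends both as offsets Kdm1a (1.57, adjusted p = 0.00416 in edgeR) and Kdm6b (-2.44, adjusted p = 0.00171 in edgeR) passed, against 4.58% and 2.90% of all genes, and Kdm5a turned to -0.06. The part of base composition in these differences was not tested beyond these offsets.

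**Figure D3:**
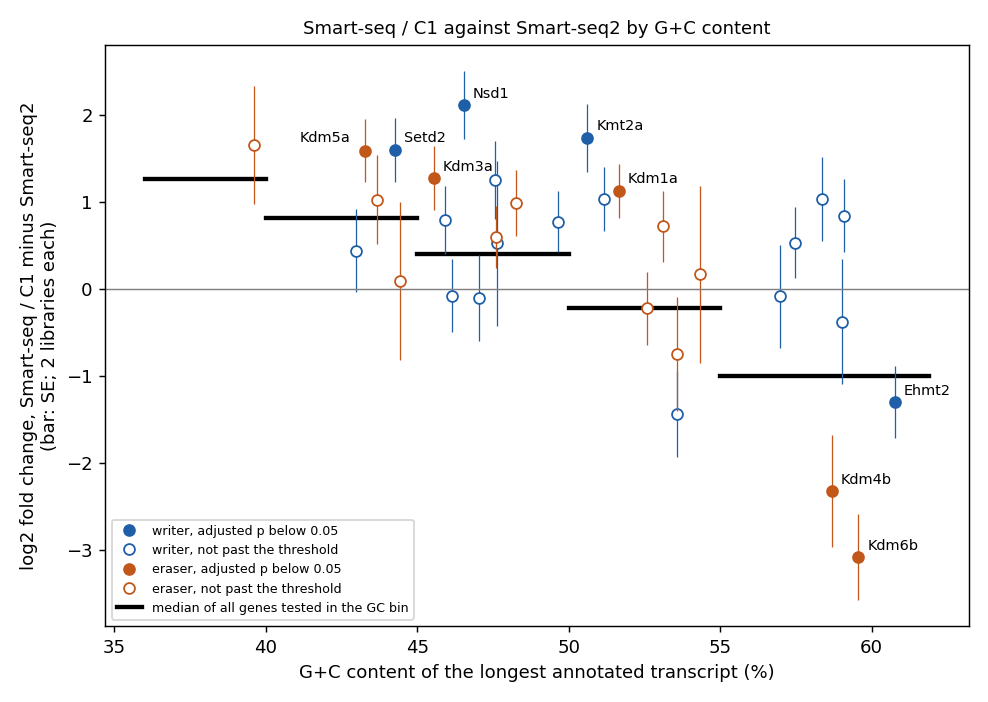
Log2 fold change of Smart-seq / C1 against Smart-seq2 (y axis) against the G and C content of the mature transcript in percent (x axis) for the 32 members, writers and erasers in different colours and filled where the adjusted p was under 0.05. Vertical bars are SEs, and the black horizontal bars are the medians of all genes in bins of G and C content. The 3 filled points below 0 (Kdm6b, Kdm4b and Ehmt2) lie at the right, above 55%, and the 6 filled points above 0 lie to their left.

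Among tag methods, amplification by in vitro transcription and by PCR differed for 7 members. In edgeR, 2 were higher with in vitro transcription and 5 lower, where 9.14% and 12.9% of all genes were called. Kdm5a had 73.9 and 91.3 CPM in CEL-seq2 and 12.5 and 19.9 CPM in MARS-seq, against 106 and 133 CPM in SCRB-seq and 172 CPM in either Drop-seq library. The groups did not overlap, and the log2 fold change was -1.95 ± 0.29 (SE; edgeR, adjusted p = 0.000163). Kdm3a had 61.3, 110.1, 40.9 and 51.5 CPM against 147, 163, 119 and 122 CPM, at -1.11 ± 0.28 (SE; edgeR, adjusted p = 0.00889). Again no library of one kind reached the other. Setd5 had 115, 132, 51.6 and 62.1 CPM against 158, 191, 159.7 and 153 CPM, at -0.97 ± 0.26 (SE; edgeR, adjusted p = 0.0138), a call lost without MARS-seq A (-0.91). Kdm2a and Nsd1 were lower by smaller amounts, at -0.90 and -0.87 (edgeR, adjusted p = 0.0314 and 0.0331). With the length trend as an offset neither passed, nor did Setd3 at 0.84 (Kdm2a at -0.65 and Nsd1 at -0.46; edgeR, adjusted p = 0.126 and 0.293). These 5 falls joined 3 erasers and 2 writers. Kdm4b (30.2, 21.1, 17.8 and 15.2 against 18.6, 6.48, 3.28 and 3.22 CPM) and Setd3, known as an actin histidine methyltransferase (32.7, 28.7, 62.3 and 65.6 against 20.8, 20.4, 28.4 and 19.3 CPM), were higher at 1.68 and 0.99 (edgeR, adjusted p = 0.0378 and 0.0382). Leaving out a library ended the call of Setd3 for 10 of the 12 libraries (all but those of Smart-seq / C1, 0.88 to 1.15) and that of Kdm4b for 9 (all but those of Smart-seq / C1 and SCRB-seq A, 1.39 to 1.80). The count of 7 fell to 3 without Smart-seq2 A, Smart-seq2 B, SCRB-seq B, Drop-seq A or Drop-seq B, to 4 without CEL-seq2 A and to 2 without MARS-seq A.

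CEL-seq2 and MARS-seq differed for 4 members, all higher in CEL-seq2. Over all genes 11% were called higher and 12.4% lower. Kdm5a had 73.9 and 91.3 CPM against 12.5 and 19.9 CPM, a log2 fold change of 2.32 ± 0.44 (SE; edgeR, adjusted p = 0.00105). Kdm2b had 59.6 and 104 CPM against 12.5 and 16.4 CPM, at 2.497 ± 0.51 (SE; edgeR, adjusted p = 0.00194). Kmt2d had 49.5 and 53.9 against 23.1 and 8.2 CPM, at 1.80 ± 0.60 (SE; edgeR, adjusted p = 0.0359). Both libraries of CEL-seq2 lay above both of MARS-seq in these genes. Setd5 was the fourth, at 1.12 ± 0.38 (SE; edgeR, adjusted p = 0.0415). The call of Kmt2d was lost without CEL-seq2 A (1.86), CEL-seq2 B (1.74), MARS-seq B (1.16), Drop-seq A (1.80) or Drop-seq B (1.77), and the count fell to 2 without either Drop-seq library. With DESeq2's size factors 2 members were higher (Kmt2d at 1.62 did not pass), as were 8.57% of all genes. With every cell weighted alike 24 were higher, as were 36.9% of all genes, whose median was 0.85. With the length trend as an offset Kdm2b (1.81) and Kdm5a (1.58) were again higher, and Nsd1 (-1.53), Setd3 (-1.51) and Kdm4c (-1.84) were lower, against 8.68% and 8.69% of all genes. Kmt2d (1.15) and Setd5 (0.35) did not pass there.

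Drop-seq and SCRB-seq differed for none of the members in edgeR's test with Benjamini-Hochberg adjustment. Over all genes 1.03% were called higher in Drop-seq and 0.483% lower. At an unadjusted p under 0.05 there were 7 members, 4 of them higher in Drop-seq, against 18.1% of all genes in either direction. DESeq2 called 2 higher, Setd1b and Kdm1a, as it did 5.56% of all genes. With every cell weighted alike, limma called 10, all lower, where 25.3% of all genes were called lower and their median was -0.82. Setd1b had 27.3 and 14.5 CPM in Drop-seq against 3.99 and 1.85 CPM in SCRB-seq, a log2 fold change of 2.85 with an adjusted p of 0.111 in edgeR. In a joint test of any difference among the 6 methods, 18 of the 32 members passed, against 65.5% of all genes. The 14 that did not included the abundant Kdm5b as well as Kmt2b, Dot1l, Kmt2e and Kdm3b.

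Other genes of the pathway were followed through the comparison of full-length with tag methods. Of 22 other writers 21 were tested, with 7 higher and 1 lower and a median log2 fold change of 0.76. Smyd5 was higher at 1.35 (edgeR, adjusted p = 0.000137) and Kmt5a, the writer of H4K20 monomethylation, lower at -1.24 (edgeR, adjusted p = 0.000541). Of 10 other erasers 8 were tested, with 5 higher and none lower and a median of 0.75. Uty and Kdm6a, the Y- and X-linked relatives of Kdm6b, were higher at 2.17 and 1.32 (edgeR, adjusted p = 0.000198 and 0.00117). Of 15 partners of the H3K4 writers 4 were higher and 2 lower, with a median of 0.33. The complex subunits Paxip1 and Ash2l rose at 1.55 and 1.28 (edgeR, adjusted p = 3.76e-05 and 7.67e-05). Of 12 partners of erasers 1 was higher and 2 lower, with a median of -0.08. Hdac1, the deacetylase found with Kdm1a, was lower at -1.61 and Skp1a higher at 1.51 (edgeR, adjusted p = 7.75e-06 and 0.000145). The 25.6% and 23.2% of all genes given above, which include short transcripts, are the background for these counts.

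In single cells most members were found in a minority of cells once each cell was brought to the same number of counts. Each cell was thinned at random to 10000 counts, fewer than the 10184 of the shallowest cell, so no cell was left out. The median member was then seen with at least 1 count in 33.9% of cells (mean over the 12 libraries), 34.5% for writers and 33.0% for erasers, and in 70.3% with all counts kept. The median was 38.95% in the full-length and 29.2% in the tag libraries, where 10000 reads and 10000 UMIs are not the same depth, while replicate libraries of a method differed by an SD of 5.34 percentage points. Kdm5b was seen in 88.9% of cells, Kdm1a in 79.8%, Nsd1 in 75.7%, Kdm3a in 66.1%, Setd5 in 59.85%, Kdm5a in 55.15% and Setd2 in 50.3%. At the other end, 7 members were under 15%, with Kdm8 at 2.66%, Setd7 at 7.41%, Kdm1b at 9.14% and Kdm7a at 9.59%. Every cell was a stem cell of the same line, so no cell type that should lack these genes was there to give the share due to free RNA.

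Shares of cells come from the same counts as the levels. They are given here for several members as a description and not as separate evidence of a difference. Kdm6b was seen in 18.8% (95% Clopper-Pearson interval 10.4% to 30.1%) and 6.56% (1.82% to 15.95%) of cells of Smart-seq / C1 A and B, and in 71.25% (60.1% to 80.8%) and 68.8% (57.3% to 78.9%) of cells of Smart-seq2. The intervals cover counting error among the cells of a library only. They do not compare methods, and shares of cells were not tested between methods. Kdm5a was seen in 3.45% (0.09% to 17.8%) and 16.7% (6.37% to 32.8%) of cells of MARS-seq A and B, against 44.1% and 48.65% in CEL-seq2. Kmt2d ranged from 5.56% (0.68% to 18.7%) in MARS-seq B to 92.75% (83.9% to 97.6%) in Smart-seq / C1 A. Kdm5b was seen in all 39 cells of SCRB-seq A (interval 91.0% to 100%) but in 58.6% (38.9% to 76.5%) of those of MARS-seq A. Kdm8 was seen in no cell of 5 tag libraries, Kdm1b in none of 2 and Smyd2 in none of 1. For cells with a UMI among 10000 counts, the upper end of the interval at 0 cells was 7.87% (SCRB-seq B) to 11.94% (MARS-seq A). This is no limit at full depth: with all counts Smyd2 was seen in 17.24% of cells of MARS-seq A. A cell showed a median of 14 of the 32 members in Smart-seq / C1 A, 6 in MARS-seq A and 9 in MARS-seq B, with the other 9 libraries between 11 and 13.

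**Figure D4:**
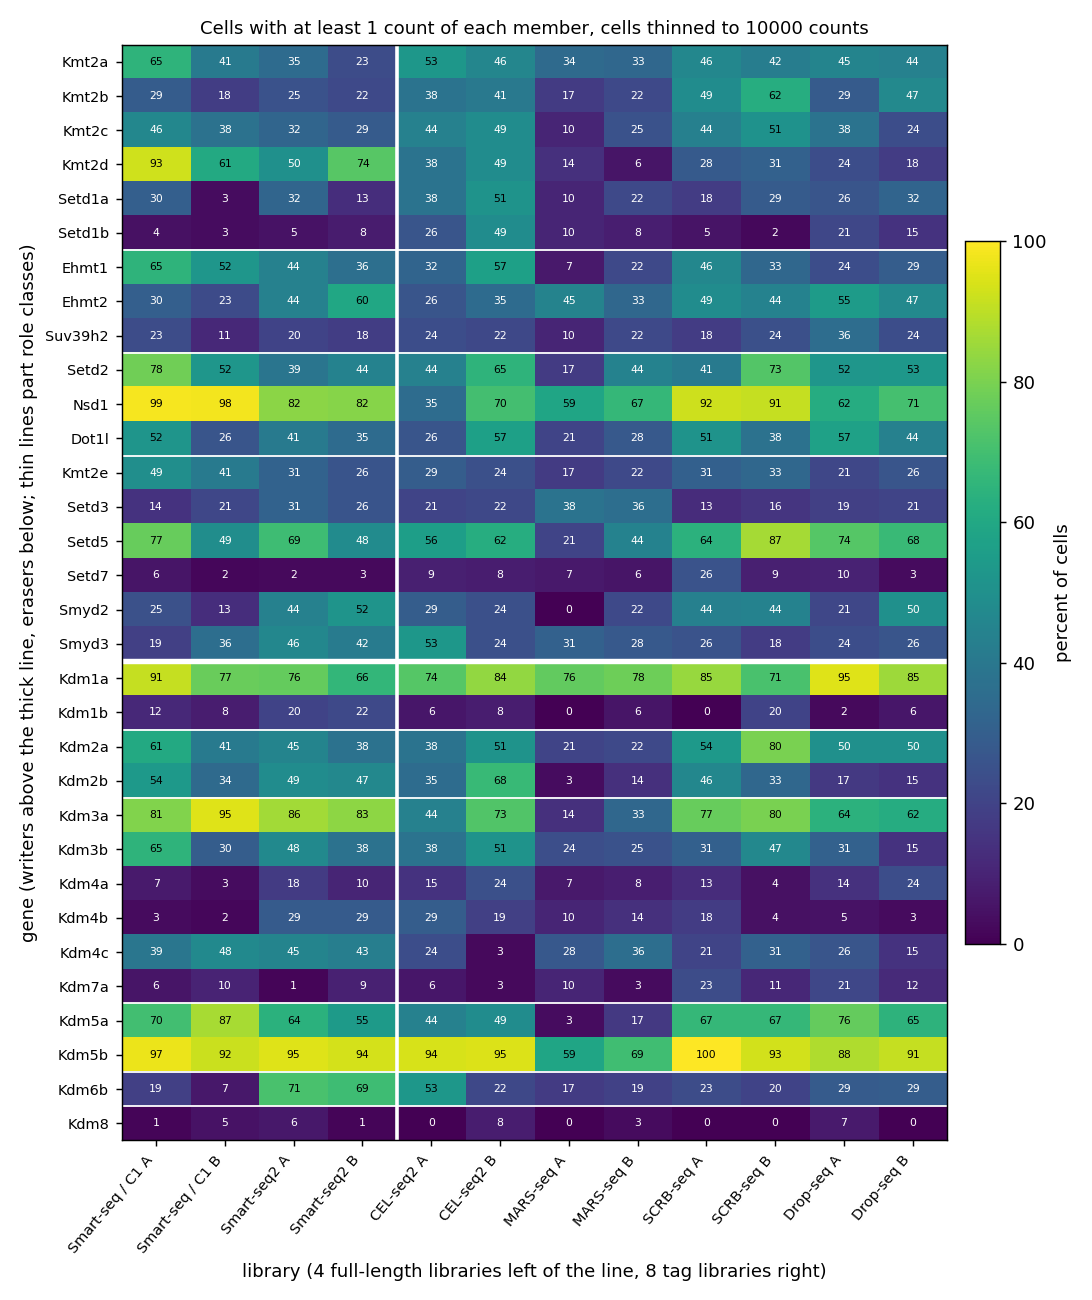
Share of cells, in percent, with at least 1 count of each member (rows) in each library (columns) after every cell was thinned to 10000 counts. Kdm5b is above 50% in every column, Kdm6b is brightest in Smart-seq2, and the MARS-seq columns are dark for Kdm5a and Kmt2d.

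No tested member passed for variation among cells of a library above or below that of other genes of like abundance. For 14 members with a mean of at least 0.2 counts at 10000 counts in every library, the squared coefficient of variation was set against its trend over all genes of that library. By limma with Benjamini-Hochberg adjustment none of the 14 passed, whereas 2.79% of 2686 genes lay above the trend and 1.15% below. With shares this low, 0 of 14 does not show that the members vary as other genes do. At an unadjusted p under 0.05 there were 4 of 14, and 18% of all genes, with Kmt2e (0.28), Kdm3b (0.25) and Kdm2a (0.23, on the log2 scale) above the trend and Kdm1a below. Kdm1a lay below the trend in 11 of 12 libraries, at -0.32 on the log2 scale (limma, adjusted p = 0.0759). Without MARS-seq B, Kmt2e (0.38) and Kdm1a (-0.38) passed (limma, adjusted p = 0.0245 and 0.0231), and without Drop-seq A, Kdm3b (0.36) and Kdm1a (-0.36) did (limma, adjusted p = 0.0352 and 0.0436). Between Drop-seq A and B no barcode was shared. Within these libraries 6 of 42 and 2 of 34 barcodes lay 1 substitution from another, or 29 and 12 where a lost base with a shift counts too, and some cells may thus be counted more than once. Joining them by either reading left the number of members past the threshold at 0 in the draw used. In 10 other random draws of the thinning 0 to 1 member passed with barcodes as deposited, 0 to 1 with the wider joining and 0 to 2 with joined substitutions. The members that passed in some draws were Kmt2a and Kmt2e, both above the trend.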

How the data were processed

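The authors deposited a table of counts per gene and cell. Per the deposited notes and the submitters' processing notes, reads were mapped to mm10 with STAR 2.4.0, and UMI counts came from the Drop-seq pipeline. How reads of the full-length methods were counted, the annotation and the use of strand are not given in the sources used here. Of the 38924 genes in the table, 37607 matched gene identifiers of GENCODE M21. The table also held 92 spike-ins, which were left out of library sizes. Sequences and lengths came from GRCm38 with that annotation.

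Counts were summed over the cells of each library and scaled by TMM. edgeR 4.0.16 (R 4.3.3) fitted 1 mean per method by robust quasi-likelihood after its expression filter, with 5 orthogonal contrasts and a joint test over 14293 genes. The procedure was checked on simulated data. Alternatives used DESeq2 1.42.0, limma 3.58.1, offsets, other filters and left-out libraries. The GC offset, the joining of Drop-seq barcodes 1 substitution apart and keeping the tested genes when a library was left out were chosen after seeing the data, as were 10 other draws of the thinning. No cell was removed and doublets were not called. The members and lists were chosen with earlier results of these data known. Members were named where, in their role class, they had the smallest p or the highest mean level, or passed the threshold against most others. In other contrasts the 3 largest rises and falls that passed were named, and in each list the 2 smallest p.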

Additional observations from a re-analysis of the deposited data

Results flagged for a closer look

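In 5 of 66 groups of libraries, each a member's level or the ratio of writers to erasers over the 4 full-length or 8 tag libraries, the highest library stood apart from the rest of its group by Dixon's criterion, and chance alone gives about 1 in 20. Setd1b reached 81.85 CPM in CEL-seq2 B, where the next of the 8 tag libraries had 27.3 CPM. Dot1l reached 86.76 CPM in Smart-seq / C1 A, with the next of 4 full-length libraries at 48.1 CPM. Smyd3 stood at 80.6 CPM in CEL-seq2 A, ahead of 46.2 CPM. Kdm1b stood at 21.76 CPM in SCRB-seq B, ahead of 9.37 CPM. Kdm4c stood at 152.3 CPM in Smart-seq / C1 B, ahead of 54.2 CPM.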

How the results depend on the processing

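The comparisons rest on 2 libraries per method, and 12 members had under 10 counts in at least 1 tag library, against at least 33 in each full-length library. Scaling by DESeq2's size factors moved the median of all genes from 0.21 to 0.07 for full-length against tag. CEL-seq2 against MARS-seq went from 0.19 to 0.02, and Drop-seq against SCRB-seq from -0.09 to 0.11, where the share of calls that were higher went from 68.1% to 86.15%. With every cell weighted alike that share was 70.01% (52.4% without a change of setting) for full-length against tag, 11.99% (56.22%) for Smart-seq / C1 against Smart-seq2, 81.31% (47.03%) for CEL-seq2 over MARS-seq and 11.19% for Drop-seq over SCRB-seq. The numbers of members past the threshold were as follows. For full-length against tag (8 without a change of setting) there were 13 with the length offset, 15 with length and GC offsets and 16 with every cell weighted alike. For Smart-seq / C1 against Smart-seq2 (9) they were 4, 2 and 4. For CEL-seq2 against MARS-seq (4) there were 2 with DESeq2's size factors and 24 with cells weighted alike. For Drop-seq against SCRB-seq (0) there were 2 by DESeq2's test, 1 without a filter, 1 with length and GC offsets and 10 with cells weighted alike. The writers' median was -0.55, -0.60 and -0.50 with length, union-of-exons length, and length and GC offsets, and the erasers' 0.052, 0.032 and 0.11. The median share of cells was 21.2% at 5000 counts. Signs turned with cells weighted alike for Kmt2a (0.53), Ehmt2 (0.17), Setd5 (0.40), Kdm1a (0.17) and Kdm2a (0.84) in full-length against tag. They turned without a filter for Setd5 (0.082), Kdm1a (0.015) and Kdm2a (0.020), with the length offset for Kdm6b (-0.15) and Kdm5b (-0.0043), and with length and GC offsets for Kdm5b (-0.057) and, in Smart-seq / C1 against Smart-seq2, Ehmt2 (0.10). With 1 library left out, Setd5 ran from -0.31 to 0.083 (above 0 without Smart-seq / C1 B or Smart-seq2 B) and Kdm6b from -0.023 (without Smart-seq / C1 A) to 0.48. Leaving out 1 library at a time gave 7 to 13 members for full-length against tag (13 without Smart-seq / C1 A), 2 to 11 for Smart-seq / C1 against Smart-seq2, 2 to 8 for in vitro transcription against PCR, 2 to 5 for CEL-seq2 against MARS-seq, 0 to 0 for Drop-seq against SCRB-seq, 13 to 21 for any difference and 0 to 2 for variation among cells. Other random draws of the thinning gave up to 1 member with barcodes as deposited or joined 1 base apart, and up to 2 with joined substitutions. The cause was not tested. Deviations of same-lettered libraries of different methods had r from -0.0839 to 0.0781 (15 pairs of methods). With 2 libraries per method, whether the letters share a culture or day cannot be told from these values. With a replicate block the counts stayed within 1.5 times those given, Setd1a (-1.01) no longer passed and Kdm1b (1.55) did. Of the single members' values under settings other than a left-out library, 172 kept direction and side, 12 turned, 16 newly passed and 24 no longer passed.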

Other observations

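Cells differed in how many counts of writers and erasers they held. At 10000 counts a cell held a median of 5 to 22 counts of the 18 writers and 4 to 18 counts of the 14 erasers, depending on the library. Within a library the Spearman correlation of both sums across cells ran from -0.058 to 0.488, a description over cells that share a library and its depth.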
